A study of Homo sapiens with 54 samples.

Results

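H9 hMSN-like cells that had received 1 µM dopamine for 1 h on each of 5 days (Chronic 1 h) were compared with cells that had received the same dose a single time (Acute 1 h). RNA was extracted at the 1 h time point after the last dose in both groups. The 6 libraries were chosen by their labels, 3 for each regimen, from 53 libraries of the series that have a table of reads. H9 is an established human embryonic stem cell line, and hMSN-like cells are neurons derived from it with activin A to resemble the medium spiny neurons of the striatum. The series also holds a 1 mM dose, RNA taken at 24 h, a time course of daily dosing and receptor agonists. Dopamine was dissolved in ascorbic acid and added in the BDNF and GDNF medium that all cultures had been given, and the controls of the same experiment were 3 libraries labelled PBS. According to the methods, the acute cultures were dosed and harvested at an earlier day of differentiation than the chronic ones. An acute dose replaced only part of the medium, whereas chronic dosing also removed all medium and supplied maturation medium before the repeated doses. Dosing regimen, culture age and medium change therefore cannot be told apart anywhere below. The harvest day of the PBS cultures is not stated, nor whether they received ascorbic acid. Dopamine and its solvent thus cannot be told apart in comparisons with PBS.

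Dopamine acts on medium spiny neurons through D1-type receptors, which raise cyclic AMP, and D2-type receptors, which lower it. Kinases downstream, including ERK, switch on immediate early genes such as FOS and EGR1 within minutes and without new protein synthesis. The comparison addresses how transcript levels early after a dose differ between cells dosed repeatedly and cells dosed once.

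Between 5755919 and 8629828 exon reads were counted in the Acute libraries, between 7145571 and 12911212 in the Chronic libraries and between 9584706 and 11026492 in the PBS libraries. For a gene of 2000 exon bases, 3 reads correspond to a TPM (transcript abundance scaled by exon length) of 0.443 to 0.955 in the 6 libraries, and such a floor covers counting error only. Reads on introns made up 23.8%, 31.2% and 20.2% of gene reads in Acute replicates 1, 2 and 3 and 15.3%, 23.6% and 17.2% in the Chronic replicates. The mean share was 25.1% ± 5.61 after acute and 18.7% ± 4.32 after chronic dosing (SD, n = 3), a difference of -6.37 percentage points that did not pass an exact two-sided permutation test (p = 0.2, where 0.1 is the smallest value 3 against 3 libraries allow). The ranges of the groups overlapped, and the PBS libraries lay between 22.3% and 23.6%. Because of this spread, reads on exons alone were tested. Replicate 2 stood apart in mitochondrially encoded transcripts, which took 12.6% of its exon reads after acute and 12.8% after chronic dosing and 12.4% in PBS, against 4.25% to 7.50% in the other replicates of these groups. On the TPM scale, mitochondrial mRNAs summed to 447900, 441600 and 426600 in replicate 2 of Acute, Chronic and PBS. In the other replicates of these groups they summed to 175200 to 295800. A smaller part of the scale was thus left for nuclear genes in replicate 2. TPM values, ranges and sums below are not corrected for this, whereas the tests used counts. Some nuclear genes, among them LHX9 and EBF2 in Acute and CXCL14 in Chronic libraries, still had their highest TPM in replicate 2. Counts without those libraries stand beside the main ones below.

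**Figure D1:**
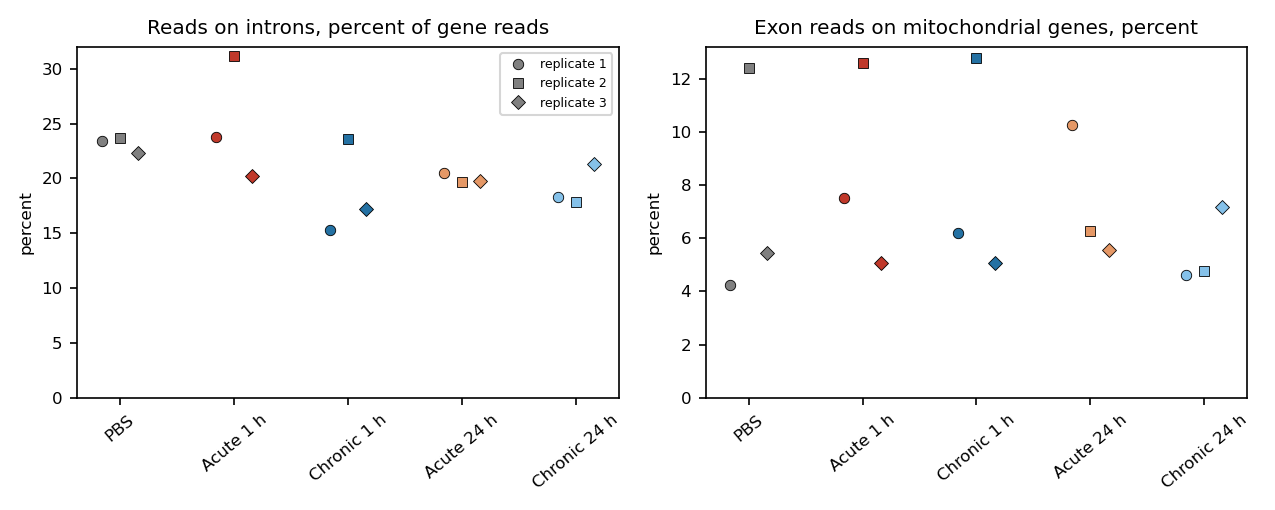
Share of reads on introns (left, percent of gene reads) and share of exon reads on mitochondrial genes (right, percent) in each library of the 1 µM experiment; marker shapes are replicate numbers. Replicate 2 of Acute 1 h had the highest intronic share, 31.2%, and replicate 2 of PBS, Acute 1 h and Chronic 1 h had the highest mitochondrial shares, 12.4% to 12.8%.

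The identity of the cells was checked against markers. BCL11B, a striatal and deep-layer cortical transcription factor, was measured at 25.8 to 38.9 TPM over the 6 libraries, PPP1R1B, which encodes DARPP-32, at 2.66 to 11.7 TPM and the D1 receptor gene DRD1 at 1.62 to 6.08 TPM. The GABA-synthesizing enzyme GAD1 lay at 2.09 to 3.62 TPM, and PDYN, the prodynorphin gene of D1-type neurons, was listed at 0 in 4 libraries and reached 0.129 TPM. PPP1R1B, GAD1 and PDYN were named after their values were seen. Some markers of other cells were far higher than these single genes. The excitatory neuron factor NEUROD6 had 493 to 701 TPM and the cortical factor FEZF2 337 to 535 TPM. TTR, the transthyretin gene of choroid plexus epithelium, had 1117 to 2345 TPM. As a list, medium spiny neuron markers summed to 209 to 238 TPM in Acute and 172 to 187 TPM in Chronic libraries. Glutamatergic markers summed to 1442 to 1644 and 1501 to 1676 TPM, and oligodendrocyte lineage markers to 31.3 to 34.3 and 23.6 to 30.02 TPM. The cultures were thus mixed, and in bulk RNA fewer cells of a type and less RNA per cell cannot be told apart.

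At 1 µM, edgeR's quasi-likelihood test with Benjamini-Hochberg adjustment gave 199 of 16541 tested genes with an adjusted p under 0.05 (1.2%), 92 higher after chronic than after acute dosing (0.556%) and 107 lower (0.647%). Differentially expressed genes (DEGs), which also had to differ by 1 or more on the log2 scale and reach a mean of 1 TPM in any group, numbered 82 (0.496%), of which 38 were higher (0.23%) and 44 lower (0.266%). The TPM ranges of the groups did not overlap for 80 of the 82, the exceptions being TPI1 and CCNF, while 15.5% of all tested genes had no overlap. That share was uneven, with 11.2% of all tested genes lower in every Chronic library and 4.35% higher. Without replicate 2 of PBS, Acute 1 h and Chronic 1 h there were 161 DEGs, 64 of them shared with the 82, and with intron reads added to the counts 74, of which 41 were shared. The fit without those replicates 2 had 3327 of 16783 genes at p below 0.05 before adjustment, against 2198 of 16541 in the main fit. The number fell to 36 without Chronic replicate 1 and to 34 without Chronic replicate 3. A fit of only these 6 libraries gave no DEG, with 1109 of 15156 genes at p below 0.05 before adjustment, and DESeq2 on all 15 libraries gave 199. The higher DEGs held PGK1, ALDOA, GPNMB and PER2, and 37 of the 38 were protein coding. The lower DEGs held the early transcription factors EGR1, FOS and NR4A2 and 13 long noncoding RNAs, which were 29.5% of them against 10.9% of all tested genes. Gene reads of the lower DEGs were also more intronic, with a median over genes of 38.4%, against 16.0% for the higher DEGs and 22.6% for all tested genes. The part of intronic reads in these lower DEGs was not tested.

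The PBS libraries place most of these differences on the acute side. Of the 38 DEGs that were higher after chronic dosing, 33 were called lower in Acute than in PBS (2.52% of all genes were), with a median log2 fold change of -1.54, and the median of Chronic against PBS was -0.19. Of the 44 lower DEGs, 29 were called higher in Acute than in PBS (3.25% of all genes were), with a median of 1.09, and the median of Chronic against PBS was -0.33. After chronic dosing, 4 of the 38 differed from PBS (3 higher, 1 lower) and 3 of the 44 (2 higher, 1 lower), against 1.75% of all genes called higher and 0.834% called lower. Against PBS, 5.77% of all genes were called after acute and 2.58% after chronic dosing. The same Acute and Chronic libraries enter both the choice of the DEGs and these PBS comparisons, so the split is a description of levels.

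Of the immediate early genes, 3 of 36 tested were lower after chronic dosing, namely EGR1, FOS and NR4A2, and IER3 was higher. The list had a median log2 difference of -0.41, against -0.005 over all genes, with 26 members below 0. Without replicate 2 of the 3 groups, 8 members were lower and 1 higher. Leaving out Chronic replicate 1 gave 2 lower and none higher. Over all genes, these fits gave 161 and 36 DEGs, against 82 in the main fit. DEGs also had to pass the fold and TPM thresholds, which calls of list members did not. By adjusted p alone the main fit called 199 genes (1.2%), and that share is not given for the other fits. EGR1 (ENSG00000120738), a zinc finger factor induced by ERK and cyclic AMP signaling, is on chromosome 5. FOS (ENSG00000170345), a subunit of the AP-1 factor, is on chromosome 14. The 250 bases upstream of their starts in RefSeq are shown because serum response elements and cyclic AMP response elements upstream of early genes are textbook entry points of these signals. Bases farther upstream were not searched. Capitals mark the CArG box, the serum response factor motif, in EGR1 (chr5:138465229-138465478, plus strand, GRCh38.p14) and TGACG, the core of the cyclic AMP response element, in FOS (chr14:75278578-75278827, plus strand), searched on both strands.
EGR1: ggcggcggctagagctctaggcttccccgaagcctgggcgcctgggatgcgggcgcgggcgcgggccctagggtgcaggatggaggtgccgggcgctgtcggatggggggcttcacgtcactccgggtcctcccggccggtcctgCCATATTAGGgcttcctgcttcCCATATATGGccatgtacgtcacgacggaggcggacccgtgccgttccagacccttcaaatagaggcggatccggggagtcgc
FOS: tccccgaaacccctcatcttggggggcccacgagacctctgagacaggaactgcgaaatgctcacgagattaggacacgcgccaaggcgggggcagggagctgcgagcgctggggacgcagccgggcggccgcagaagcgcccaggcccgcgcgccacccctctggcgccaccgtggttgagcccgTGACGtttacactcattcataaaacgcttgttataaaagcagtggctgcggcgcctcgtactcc
The EGR1 window held 2 CArG boxes, 105 and 83 bases before the start, and the FOS window 1 TGACG, 64 bases before it. The EGR1 window also held 2 TGACG, left in lower case, and the FOS window held no CArG box. A CArG box occurred in 1.15% and TGACG in 21.6% of 27195 RefSeq windows of that length, in 0.989% and 29.2% of the 11831 windows of tested genes, and among the 29 immediate early genes with a window in 2 and 16 (55.2%). TGACG can share bases with ACGTG, which is searched below. A match describes letters and no bound site.

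EGR1 was measured at 257, 143 and 206 TPM in Acute replicates 1, 2 and 3 and at 55.2, 50.0 and 55.5 TPM in the Chronic replicates, against a mean of 10.1 TPM in PBS. Every Acute library was above every Chronic one, and every Chronic one was above PBS. The level was 3.64-fold lower after chronic dosing (log2 fold change -1.86, SE 0.20, edgeR adjusted p = 0.00145), and both groups were called higher than PBS, by 4.35 and 2.48 on the log2 scale. FOS followed the same order, with 95.5, 54.9 and 104 TPM in the Acute replicates, 32.7, 22.8 and 38.2 TPM in the Chronic replicates and a PBS mean of 7.09 TPM. Its groups did not overlap, and the difference was -1.40 (SE 0.22, edgeR adjusted p = 0.00799), with an adjusted p of 0.0563 when Chronic replicate 1 was left out. NR4A2, the nuclear receptor NURR1 of dopamine neuron development, was measured at 39.99, 39.5 and 44.4 TPM in Acute and 16.0, 10.7 and 17.8 TPM in Chronic replicates. Here the Chronic libraries fell below the PBS mean of 25.9 TPM, which passed the test (log2 fold change -0.82, adjusted p = 0.0416), whereas Acute against PBS gave 0.66 (adjusted p = 0.0651). The difference between regimens was -1.48 (SE 0.20, edgeR adjusted p = 0.00278). The calls of EGR1 and NR4A2 were kept under all alternatives except a fit of only these 6 libraries, in which no gene was called.

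IER3, an early response gene that restrains cell death, moved the other way. It was measured at 44.3, 43.8 and 66.3 TPM after acute and at 120, 82.3 and 106 TPM after chronic dosing, without overlap. The log2 difference was 1.02 (SE 0.18, edgeR adjusted p = 0.0120, and 0.0629 without Chronic replicate 1). Chronic lay above PBS by 0.78 (adjusted p = 0.0320), and Acute against PBS gave -0.25 (adjusted p = 0.493).

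The other 32 members of the list did not pass the test between regimens, although several had been induced over PBS by both. FOSB, another AP-1 subunit, had 14.6, 6.96 and 18.6 TPM in Acute and 3.60, 3.14 and 6.17 TPM in Chronic replicates (log2 difference -1.57, SE 0.51, edgeR adjusted p = 0.172). The EGR1 relatives EGR2 and EGR3 gave -1.16 (adjusted p = 0.462) and -1.54 (adjusted p = 0.268), also without overlap of the groups. EGR2 was listed at 0 in all PBS libraries, so no fold over PBS is given for it. NR4A3, a close relative of NR4A2, had 26.2 to 27.8 TPM in Acute and 18.5 to 20.9 TPM in Chronic libraries (-0.46, adjusted p = 0.326), and BTG2, an antiproliferative gene, gave -0.53 (adjusted p = 0.0942). CSRNP1 and GADD45G had nearly equal levels in both regimens, with -0.02 and -0.01, and both regimens were called higher than PBS for each. JUN, JUND and IER5 gave 0.18, 0.30 and 0.24. JUNB spread from 43.1 to 295 TPM in the Acute group alone (-0.72, SE 0.45, adjusted p = 0.550), so a difference of its size was not detectable with these replicates.

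**Figure D2:**
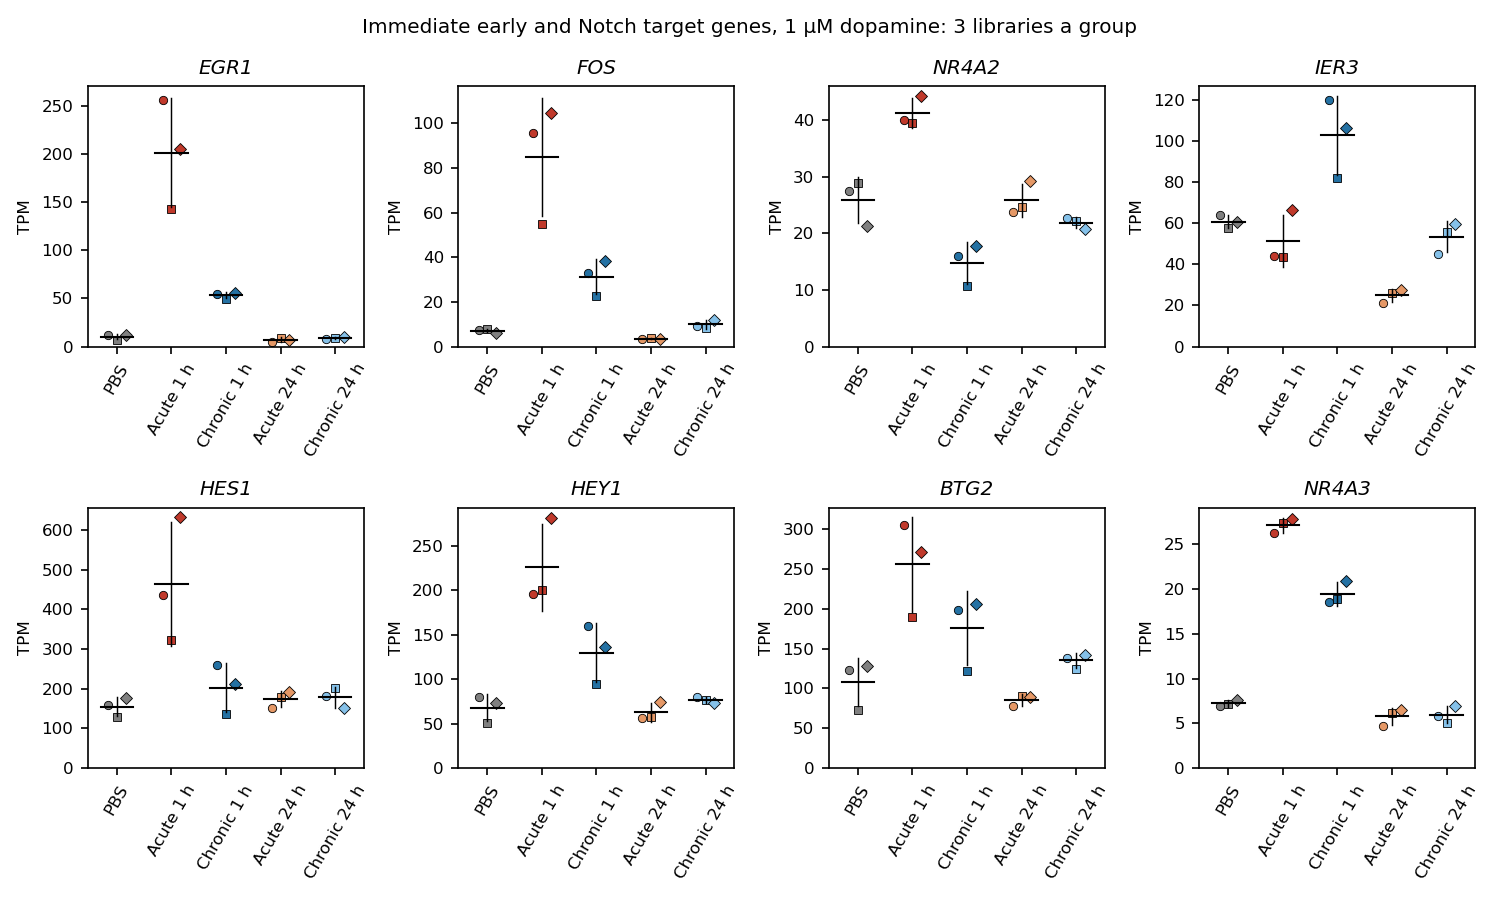
TPM of 4 immediate early genes with calls, 2 Notch target genes with calls and 2 immediate early genes without, in each library of the 1 µM experiment; bars are the mean and SD of 3 libraries, and marker shapes are replicates 1 to 3 (circle, square, diamond). EGR1, FOS, HES1 and HEY1 were highest in Acute 1 h and IER3 in Chronic 1 h.

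Of 12 Notch target genes, 3 were called lower after chronic dosing, none was called higher and 9 were not called. The median was -0.34, and 2 members were above 0. There were 4 calls without replicate 2 of the 3 groups, 1 without Chronic replicate 3, 1 without Chronic replicate 2, and none with intron reads added. Over all genes, these fits gave 161, 34, 69 and 74 DEGs, against 82 in the main fit, a stricter count than calls by adjusted p alone. HES1 (ENSG00000114315), the repressor that keeps progenitors from differentiating and that responds to Notch and to growth factor signals, is on chromosome 3. Its upstream bases (chr3:194135898-194136147, plus strand, GRCh38.p14) are shown with TGGGAA, the core of the site of the Notch effector RBPJ, in capitals.
HES1: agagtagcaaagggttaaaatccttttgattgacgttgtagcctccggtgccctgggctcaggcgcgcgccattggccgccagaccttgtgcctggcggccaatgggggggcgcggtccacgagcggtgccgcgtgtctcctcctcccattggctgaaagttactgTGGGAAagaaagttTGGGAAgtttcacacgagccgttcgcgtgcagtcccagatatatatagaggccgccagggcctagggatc
The window held 2 matches, 84 and 70 bases before the start, and 21.1% of all windows held at least 1. Of the 3 called Notch targets, HES1 and NRARP had a window, and that of NRARP held no match. HES1 was measured at 435, 322 and 631 TPM in Acute and at 259, 137 and 213 TPM in Chronic replicates, and PBS had a mean of 155 TPM. The groups did not overlap, the difference was -1.16 (SE 0.17, edgeR adjusted p = 0.00436), and Chronic against PBS gave 0.41 (adjusted p = 0.251). With intron reads added to the counts the value was -0.95 (adjusted p = 0.101). HEY1, a related repressor, had a difference of -0.78 (adjusted p = 0.0128), and NRARP, a feedback inhibitor of Notch, of -0.84 (adjusted p = 0.0373), and with intron reads the adjusted p was 0.201 and 0.385. HES5 gave -1.21 (adjusted p = 0.193), with Acute libraries between 118 and 433 TPM.

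Single transcription factors were called in both directions. EBF2, a helix-loop-helix factor of early neurons, had 31.7, 38.6 and 35.0 TPM in Acute and 9.70, 8.77 and 11.3 TPM in Chronic replicates. The Chronic libraries were all below the Acute ones and close to the PBS mean of 12.7 TPM, and the difference was -1.82 (SE 0.22, edgeR adjusted p = 0.00176). LHX9, a LIM homeodomain factor, had 14.3, 22.2 and 17.5 TPM in Acute and 5.45, 4.50 and 5.65 TPM in Chronic replicates, again without overlap (-1.81, SE 0.26, adjusted p = 0.00416). ID4, which blocks helix-loop-helix factors and was named here after its values were seen, had 407 to 600 TPM in Acute, 187 to 242 TPM in Chronic and a mean of 209 TPM in PBS libraries (-1.21, SE 0.14, adjusted p = 0.00167). EBF3 gave -1.04 (adjusted p = 0.0235) and was also named after its values were seen. SOX1, a neural progenitor factor, was lower by a log2 difference of -0.72 (adjusted p = 0.00886), with an adjusted p of 0.230 when intron reads were added and of 0.0672 without Chronic replicate 3. MAF, found in interneurons of the medial ganglionic eminence, gave -0.71 (adjusted p = 0.0300), with 0.0988 when intron reads were added and 0.05004 to 0.169 without any one Acute library or without Chronic replicate 1 or 3. On the higher side, NFIX, a nuclear factor I gene, gave 1.31 (adjusted p = 0.00580) and ETV4, an ETS factor, 1.26 (adjusted p = 0.0294), both named after their values were seen.

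PRKCB, SLC7A11 and PSAT1 were lower too. PRKCB, the beta isoform of protein kinase C, had 33.3, 36.7 and 40.8 TPM in Acute and 16.6, 11.8 and 16.9 TPM in Chronic replicates, with 12.4 TPM in PBS (-1.29, SE 0.15, edgeR adjusted p = 0.00176). SLC7A11, the cystine-glutamate exchanger, had 3.56, 6.84 and 7.02 TPM in Acute and 1.83, 1.58 and 1.38 TPM in Chronic replicates (-1.86, SE 0.32, adjusted p = 0.0110). Its groups did not overlap, but the adjusted p was 0.0604 without Chronic replicate 1 and 0.0747 without Chronic replicate 3. It was the sole call among 13 genes of the NRF2 antioxidant response. PSAT1, an enzyme of serine synthesis, was lower by -0.90 on the log2 scale (adjusted p = 0.00221). TKTL1, a transketolase-like gene, gave -1.61 (adjusted p = 0.0211), and MGAT4C, a glycosyltransferase-like gene, -1.77 (adjusted p = 0.00899). The TKTL1 call was lost without any one Chronic library (edgeR adjusted p = 0.0529 to 0.0743) and without Acute replicate 1 (0.0802).

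Among the noncoding RNAs, NEAT1, the scaffold of nuclear paraspeckles, had 5.62, 9.90 and 8.501 TPM in Acute and 1.85, 1.75 and 3.00 TPM in Chronic replicates. The groups did not overlap (-1.88, SE 0.38, edgeR adjusted p = 0.0296), yet the call was lost in several alternatives, among them intron reads added (-0.84, adjusted p = 0.178) and the replicate block (-1.87, adjusted p = 0.0523). LINC02282 gave -1.86 (adjusted p = 0.0199), ZFHX4-AS1 -1.89 (adjusted p = 0.00395) and HMGA2-AS1 -2.19 (adjusted p = 0.0114), and CCDC144CP, a transcribed pseudogene, -1.81 (adjusted p = 0.0370, and 0.0554 with the replicate block). Without Chronic replicate 1 or 3, the adjusted p of HMGA2-AS1 was 0.0651 and 0.0527. With intron reads added, the adjusted p of ZFHX4-AS1, LINC02282, CCDC144CP and MGAT4C was 0.0602, 0.0508, 0.0762 and 0.191. ACOXL-AS1 had 12, 19 and 30 exon reads in Acute and 1, 2 and 2 in Chronic replicates (adjusted p = 0.0476, and 0.0798 with the replicate block), and its fitted fold is not given because it depends on so few reads. The strand used for counting is not given in the sources used here, so reads of these antisense genes and of their partners cannot be told apart.

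Of the 31 lists, glycolysis had the largest share of calls, with 9 of 25 tested genes higher after chronic dosing, none lower and 21 above 0. The median of the list was 0.44. There were 12 calls without replicate 2 of the 3 groups, 5 without Chronic replicate 1 and 3 without Chronic replicate 3. Over all genes, these fits gave 161, 36 and 34 DEGs, against 82 in the main fit, a stricter count than calls by adjusted p alone. Of the 9 called genes, 7 were DEGs. PGK1 (ENSG00000102144), phosphoglycerate kinase, and ALDOC, an aldolase of brain, are shown with ACGTG, the core of the hypoxia response element, in capitals. The windows are chrX:78103998-78104247 on the plus strand and chr17:28576896-28577145 on the minus strand of GRCh38.p14, upstream of the RefSeq starts, whereas the deposited annotation starts PGK1 farther upstream.
PGK1: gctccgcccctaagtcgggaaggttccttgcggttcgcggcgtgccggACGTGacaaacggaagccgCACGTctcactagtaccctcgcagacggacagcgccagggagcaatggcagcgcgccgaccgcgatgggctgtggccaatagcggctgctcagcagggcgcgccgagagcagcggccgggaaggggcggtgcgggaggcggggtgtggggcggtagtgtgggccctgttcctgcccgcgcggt
ALDOC: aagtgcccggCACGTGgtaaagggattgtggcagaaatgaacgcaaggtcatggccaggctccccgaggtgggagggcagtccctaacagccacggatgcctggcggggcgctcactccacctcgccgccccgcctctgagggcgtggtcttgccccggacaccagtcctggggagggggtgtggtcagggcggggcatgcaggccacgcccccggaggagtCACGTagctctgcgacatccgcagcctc
PGK1 held 2 matches on either strand, 202 and 183 bases before the start, and ALDOC 3, at 240, 239 and 28 bases, of which the first overlap in the palindrome CACGTG, an E-box. ACGTG occurred in 18.7% of all windows, in 22.6% of those of tested genes and in 8 of the 22 glycolysis genes with a window (36.4%). Of the 9 called glycolysis genes, 4 had a match, and ENO1, PFKP, TPI1, PKM and SLC16A3 had none.

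PGK1 was measured at 72.5, 57.1 and 85.04 TPM in Acute and at 163, 104 and 197 TPM in Chronic replicates, with 208 TPM in PBS. No Acute library reached the lowest Chronic one, and the Chronic mean stayed nearer to PBS. The difference was 1.12 (SE 0.13, edgeR adjusted p = 0.00167), Acute against PBS was -1.51 (adjusted p = 2.02e-05) and Chronic against PBS -0.38 (adjusted p = 0.1605). ALDOA, the aldolase of muscle and most tissues, had 208, 96.7 and 266 TPM in Acute and 571, 307 and 708 TPM in Chronic replicates (1.51, SE 0.25, adjusted p = 0.00977, and 0.0530 without Chronic replicate 3). ENO1, enolase, gave 1.12 (adjusted p = 0.00580), and PKM, pyruvate kinase, 0.72 (adjusted p = 0.00967). PFKP, a phosphofructokinase, gave 1.01 (adjusted p = 0.0105), ALDOC 1.29 (adjusted p = 0.0105), TPI1 1.09 (adjusted p = 0.0225) and GPI 0.96 (adjusted p = 0.0253). SLC16A3, the lactate exporter MCT4, had 1.34, 0.456 and 1.84 TPM in Acute and 6.48, 4.30 and 8.04 TPM in Chronic replicates (2.43, SE 0.41, adjusted p = 0.0110, and 0.0530 without Chronic replicate 3). GAPDH, the most abundant member, overlapped between groups (962 to 2967 against 1819 to 4119 TPM) and was not called (0.69, adjusted p = 0.213), nor was LDHA (0.53, adjusted p = 0.184). The glucose transporter SLC2A1 gave 0.02 and SLC2A3 -0.36, neither called. The calls of PGK1, ENO1 and PKM were kept under every alternative but the fit of 6 libraries. Of HIF targets outside glycolysis, 3 of 23 were higher, the prolyl hydroxylase subunits P4HA1 (0.81, adjusted p = 0.0313) and P4HA2 (1.22, adjusted p = 0.0386) and NDRG1 (1.13, adjusted p = 0.0225), and without Chronic replicate 1 or 3 none was called. VEGFA gave 0.48 (adjusted p = 0.143) and BNIP3 0.67 (adjusted p = 0.0562).

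**Figure D3:**
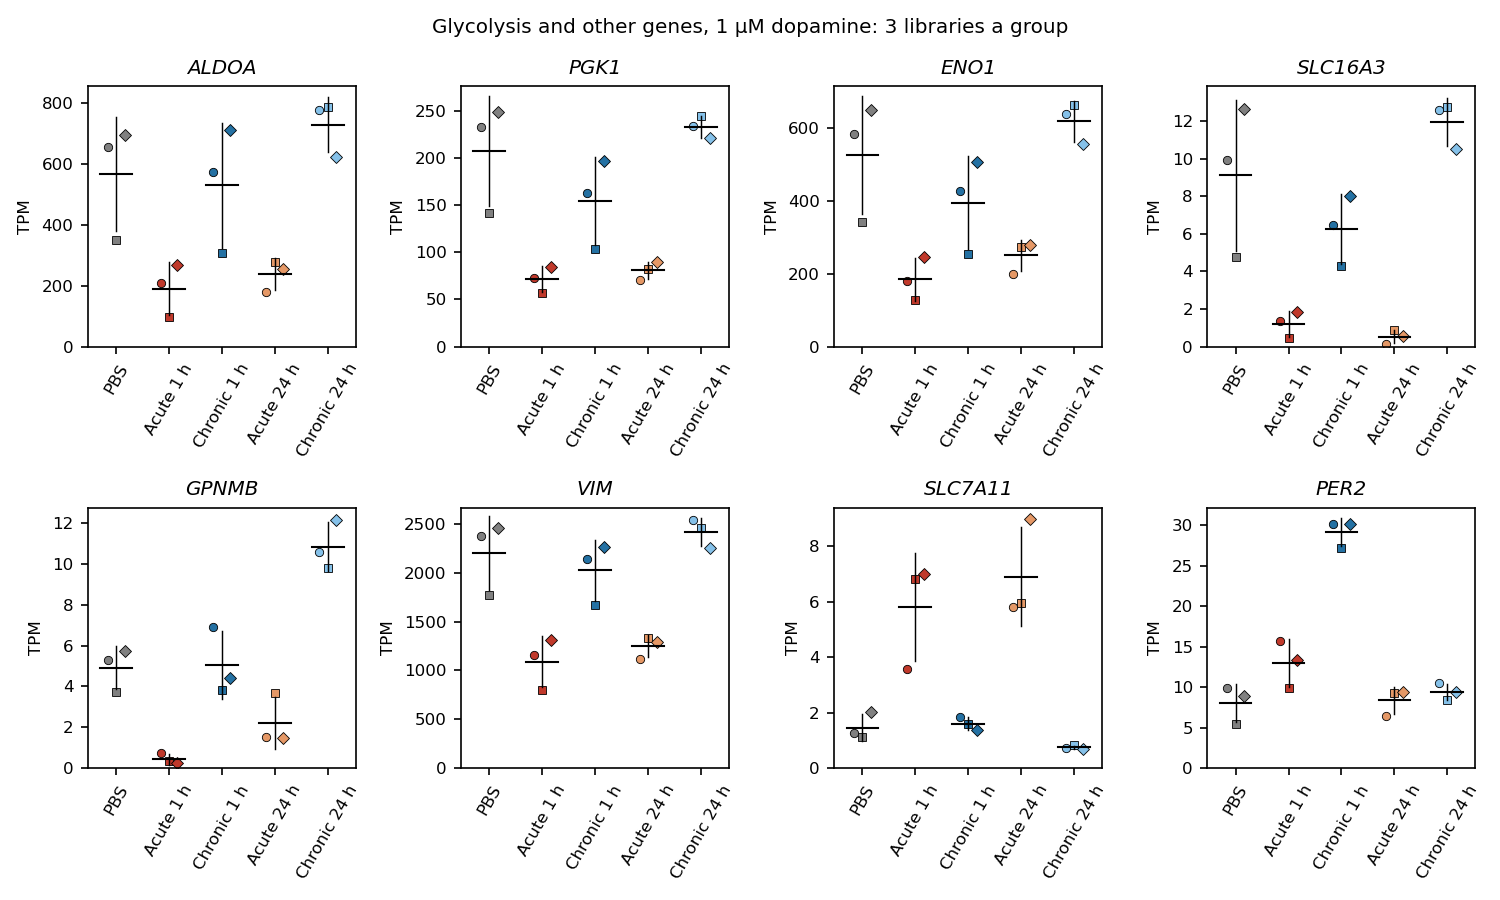
TPM of 4 glycolysis genes and of GPNMB, VIM, SLC7A11 and PER2 in each library of the 1 µM experiment; bars are the mean and SD of 3 libraries, and marker shapes are replicates 1 to 3 (circle, square, diamond). The glycolysis genes, GPNMB and VIM were lower in Acute 1 h than in PBS and Chronic 1 h, SLC7A11 was higher, and PER2 was highest in Chronic 1 h.

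The largest differences toward chronic dosing were in genes of low level. GPNMB, a transmembrane glycoprotein of lysosome-rich cells, had 0.738, 0.333 and 0.226 TPM in Acute and 6.94, 3.82 and 4.40 TPM in Chronic replicates, from 3 to 7 and 53 to 109 exon reads. The groups lay far apart, PBS had a mean of 4.93 TPM, and the difference was 3.61 (SE 0.45, edgeR adjusted p = 0.00197). ALOX15, a lipoxygenase, gave 2.60 (adjusted p = 0.0199) from 1 to 13 reads in Acute libraries, and POSTN, the matrix protein periostin, 2.09 (adjusted p = 0.0296) from 3 to 11 reads. The chemokine CXCL14 had 13.5, 19.2 and 22.3 TPM in Acute and 57.6, 76.5 and 47.4 TPM in Chronic replicates (1.78, SE 0.28, adjusted p = 0.00799). Coagulation factor F5 gave 1.87, the noncoding LINC02607 1.84, the matricellular gene CCN3 1.70 (adjusted p = 0.0405, and 0.0616 with the replicate block) and the cadherin CDH13 1.64, all DEGs. CCN3 was not called without any one Chronic library (edgeR adjusted p = 0.0756 to 0.136). GALNTL6, a glycosyltransferase-like gene, gave 1.82 (adjusted p = 0.0155) on exon reads but -0.13 (adjusted p = 0.929) when intron reads were added, and for F5 and CDH13 the values with intron reads were 0.14 and 0.04, neither called. ALOX15, POSTN and LINC02607 also lost their calls there, with 1.49, 1.99 and 0.69.

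Further higher genes belonged to several lists. VIM, the intermediate filament vimentin of progenitors and glia, had 1163, 801 and 1309 TPM in Acute and 2139, 1673 and 2265 TPM in Chronic replicates, without overlap (0.93, SE 0.10, edgeR adjusted p = 0.00145). PER2, a repressor of the circadian clock, was the clock gene called, out of 18. It had 15.8, 9.84 and 13.4 TPM in Acute, 30.2, 27.2 and 30.2 TPM in Chronic and 8.04 TPM in PBS libraries (1.22, SE 0.17, adjusted p = 0.00278), so that Acute and Chronic both lay above PBS, by 0.72 and 1.94. TXNIP, an inhibitor of thioredoxin and of glucose uptake named here after its values were seen, had 121 to 128 TPM in Acute, 222 to 390 TPM in Chronic and 955 TPM in PBS libraries (1.18, adjusted p = 0.00221). It was the single higher DEG called below PBS after chronic dosing, with -1.70 on the log2 scale (adjusted p = 4.65e-05). TIMP3, an inhibitor of matrix proteases, gave 1.11 (adjusted p = 0.00661) and with POSTN made 2 calls of 33 extracellular matrix genes. Of 30 cell cycle genes, 4 were higher, namely CCNB1 (0.63), CCNB2 (0.55), AURKA (0.77) and KIF20A (0.74), with adjusted p from 0.0110 to 0.0373. CCNB2 and AURKA had an adjusted p of 0.0527 and 0.0540 with the replicate block. The list had 13 calls without replicate 2 of the 3 groups, none without Chronic replicate 1 and 1 without Chronic replicate 3. Over all genes, these fits gave 161, 36 and 34 DEGs, against 82 in the main fit, a stricter count than calls by adjusted p alone. In the unfolded protein response, the chaperone HSPA5 (0.62, adjusted p = 0.0139) and the transcription factor XBP1 (0.75, adjusted p = 0.0141) were higher while PSAT1 was lower, 3 calls of 20. SPRY2, a feedback inhibitor of ERK signaling, was higher by 0.94 (adjusted p = 0.0336), 1 call of 18 in MAP kinase feedback, with an adjusted p of 0.115 without Chronic replicate 1. In the remaining lists, NRN1 (0.67), NEFL (0.64), FDFT1 of cholesterol synthesis (0.69) and the heat shock gene HSPA1B (0.99) were each the single call, and HSPA1B is a near copy of a neighboring gene whose reads can be split between them. The NEFL call was lost without any one Chronic library (edgeR adjusted p = 0.0713 to 0.0944).

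Choroid plexus markers had 2 calls of 6, TTR (0.62, adjusted p = 0.0300) and CLIC6, a chloride channel (1.16, adjusted p = 0.0448), and none when any Chronic library was left out. Their summed level was 1582, 1216 and 1551 TPM in Acute, 2188, 1803 and 2449 TPM in Chronic and 2194 to 2772 TPM in PBS libraries, without overlap between the regimens. POSTN was the 1 call of 10 mesenchymal and meningeal markers, whose sums were 36.1 to 75.8 and 54.3 to 90.8 TPM and overlapped. The markers of astrocytes (9 tested), the oligodendrocyte lineage (6), glutamatergic neurons (9) and pluripotent cells (2) had no call. Their sums were 369 to 409 TPM in Acute and 277 to 303 TPM in Chronic libraries for astrocytes, without overlap, and 31.3 to 34.3 TPM in Acute and 23.6 to 30.02 TPM in Chronic libraries for the oligodendrocyte lineage. Glutamatergic markers summed to 1442 to 1644 and 1501 to 1676 TPM and those of pluripotency to 24.4 to 42.2 and 22.2 to 29.1 TPM, both with overlap. Medium spiny neuron markers summed to 209 to 238 TPM in Acute and 172 to 187 TPM in Chronic libraries. The part of cell composition in the differences between regimens was not tested.

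The receptors and their machinery showed no call. DRD1 had 5.05, 4.09 and 6.08 TPM in Acute and 2.77, 1.62 and 4.69 TPM in Chronic replicates, which overlapped (-0.74, SE 0.67, edgeR adjusted p = 0.717). DRD2 gave -0.43 (adjusted p = 0.768), DRD4 0.11 (adjusted p = 0.964) and the adenosine receptor genes ADORA2A and ADORA1 -1.05 (adjusted p = 0.623) and 0.14 (adjusted p = 0.871). DRD3 and DRD5 were too low to be tested. The SE of DRD1, DRD2, DRD4 and ADORA2A ran from 0.46 to 0.75, so changes of the size seen in ADORA2A were not detectable with these replicates. No gene was called among 21 members of the receptor desensitization machinery, 22 of cyclic AMP and CREB feedback, 17 of striatal dopamine signaling, 23 medium spiny neuron markers, 21 glutamate and GABA-A receptor subunits, 18 CLK kinases and splicing factors, 3 metallothionein and zinc export genes or 13 mitochondrial mRNAs. Their median differences were -0.05, -0.009, 0.15, -0.23, 0.10, -0.16, -0.03 and -0.04.

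**Figure D4:**
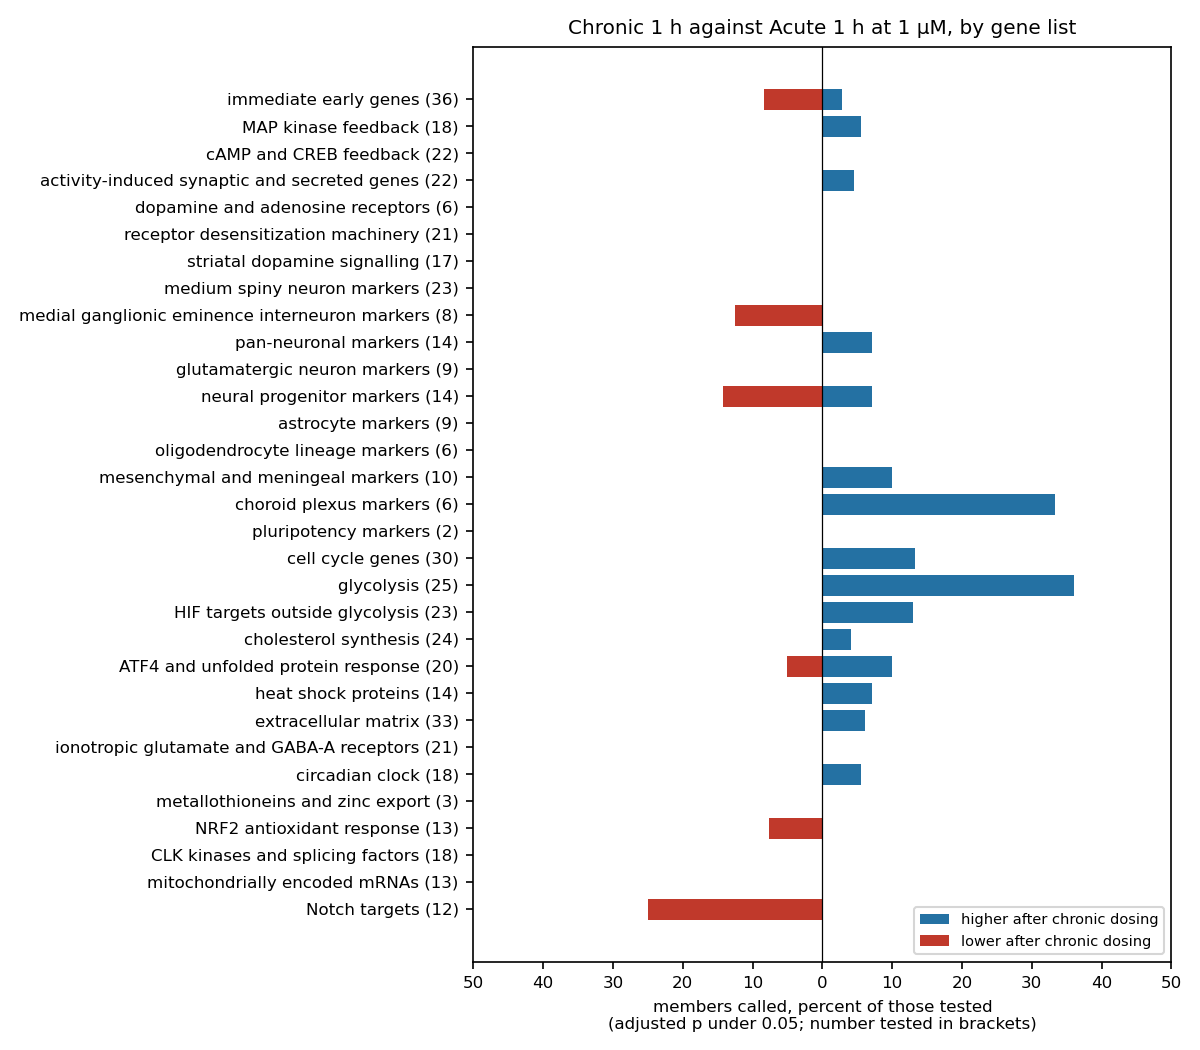
Percent of the tested members of each gene list with an adjusted p under 0.05 between Chronic 1 h and Acute 1 h, drawn to the right where higher and to the left where lower after chronic dosing; the number tested is in brackets. Glycolysis had 9 of 25 members higher, and immediate early genes and Notch targets each had 3 lower, against 0.556% higher and 0.647% lower over all genes.

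The same comparison with RNA taken at 24 h used none of the 6 libraries. There 4.48% of genes were called, 2.37% higher and 2.11% lower after chronic dosing. Of the 38 DEGs that were higher at 1 h, 28 were called higher at 24 h and none lower, and 37 had the same sign. Of the 44 lower DEGs, 14 were called lower at 24 h and 40 had the same sign, and FOS was called in the opposite direction. Of the glycolysis genes, 14 of 25 were called higher at 24 h with a median of 0.77, and SLC16A3 reached 4.45 (adjusted p = 1.01e-04). SLC7A11 was lower by -3.18 (adjusted p = 1.34e-04), with 5.80, 5.95 and 8.99 TPM in Acute and 0.716, 0.818 and 0.693 TPM in Chronic libraries at 24 h. ID4 and EBF2 also differed at 24 h, by -1.28 (adjusted p = 1.86e-04) and -1.25 (adjusted p = 0.00519). Of the 36 immediate early genes, 9 were called higher after chronic dosing at 24 h and none lower, with a median of 0.60. EGR1 was at 6.91 ± 2.52 TPM in Acute and 8.69 ± 0.916 TPM in Chronic libraries at 24 h (SD, n = 3), a difference of 0.34 (adjusted p = 0.463), and FOS at 3.44 ± 0.167 and 9.87 ± 1.96 TPM, a difference of 1.52 (adjusted p = 0.00421). NR4A2 and HES1 gave -0.23 (adjusted p = 0.604) and 0.04 (adjusted p = 0.936) at 24 h.

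A test of the difference itself between 1 h and 24 h passed for 3 genes (0.0181%), 1 more positive (0.00605%) and 2 more negative (0.0121%) at 1 h, and 1020 had p below 0.05 before adjustment. For FOS it was -2.92 (SE 0.34, edgeR adjusted p = 0.00315) and for EGR1 -2.21 (SE 0.30, adjusted p = 0.0143). The third was NCOA5, a nuclear receptor coactivator, with 2.38 (SE 0.24, adjusted p = 0.00126). It was at 78.8 ± 18.8 TPM in Acute and 95.1 ± 23 TPM in Chronic libraries at 1 h, above the PBS mean of 15.8 TPM, and at 59.8 ± 3.65 and 14.1 ± 0.471 TPM at 24 h (SD, n = 3). For NR4A2 and HES1 the difference between times did not pass (adjusted p = 0.196 and 0.117), so they are not shown to be particular to 1 h.

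**Figure D5:**
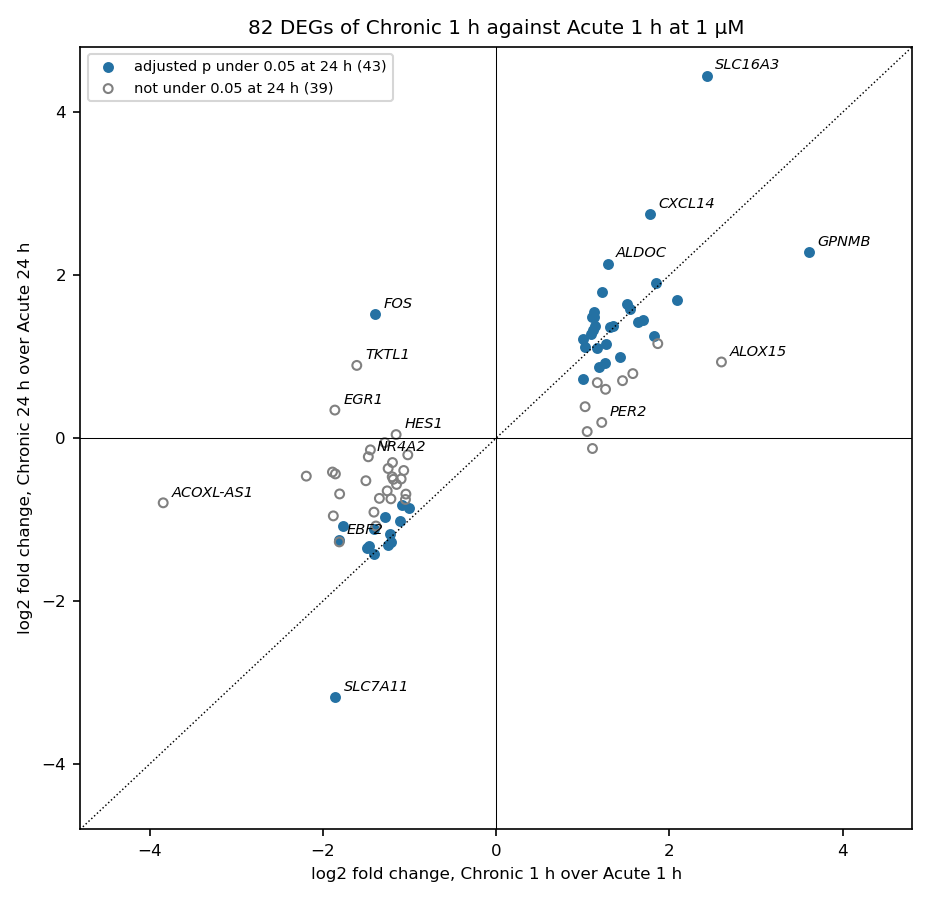
Log2 fold change of the 82 DEGs between regimens at 1 h (x axis) and at 24 h (y axis), with filled points for an adjusted p under 0.05 at 24 h and a dotted line of equal values. Of the 38 DEGs on the right, 37 lie above 0 at 24 h, and FOS lies high on the left at 1.52.

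At 1 mM dopamine, the 6 libraries of the same regimens gave 4.18% of 18390 genes called, and 46 of the 82 DEGs of the 1 µM dose had the same sign there. Of these genes, 13 were called in the same direction and 5 in the opposite one, and 21 and 9 when Acute 24 h replicate 1 of the 1 mM dose was left out of the fit, in which 7.98% of all genes were called. Intron shares ran the other way at that dose, from 12.3% to 13.2% in Acute and from 20.6% to 20.9% in Chronic libraries, and their part in the differences between doses was not tested. NR4A2 was lower at 1 mM too (-1.01, adjusted p = 0.00235), with 37.0, 26.1 and 25.2 TPM in Acute and 15.6, 14.3 and 17.7 TPM in Chronic replicates. EBF2 (-1.97, adjusted p = 5.55e-04), ID4 (-0.94, adjusted p = 3.63e-05) and HES1 (-0.64, adjusted p = 0.0390) were lower as well. EGR1 was at 532, 483 and 551 TPM in Acute and 332, 371 and 344 TPM in Chronic replicates at 1 mM, without overlap, and the difference was -0.70 (adjusted p = 0.658). Its adjusted p was 0.0182 when Acute 24 h replicate 1 of that dose, a library outside the comparison, was left out of the fit, which took the SE from 0.61 to 0.19.

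The difference of the regimen effect between doses passed the edgeR test for 462 genes (2.51%), 240 more positive (1.31%) and 222 more negative (1.21%) at 1 µM. The number was 3219 with intron reads added, 1005 without replicate 2 of the 3 groups at 1 µM, 1145 (6.05%) without Acute 24 h replicate 1 at 1 mM, and 381 and 452 without Acute replicate 1 or 2 at 1 µM. It lay between 200 and 263 without any single 1 mM library of the 1 h groups or without Chronic replicate 1 or 3 at 1 µM, and at 866 and 727 without Acute replicate 3 and Chronic replicate 2 at 1 µM. Among the 82 DEGs it passed for 44, and for 54 without that 24 h library. The DEGs were chosen on the 1 µM libraries that form part of this difference, so these counts are a description. IER3 was higher after chronic dosing at 1 µM and lower at 1 mM (-1.16, adjusted p = 0.00397), with 373, 355 and 396 TPM in Acute and 184, 210 and 154 TPM in Chronic libraries at that dose, a difference between doses of 2.21 (adjusted p = 8.23e-04). SLC7A11 differed by -2.59 (adjusted p = 0.00403), with 0.74 at 1 mM (adjusted p = 0.237). VIM differed by 1.37 (adjusted p = 5.60e-04), with -0.41 at 1 mM (adjusted p = 0.125), and PRKCB by -1.15 (adjusted p = 0.00219), with -0.10 at 1 mM (adjusted p = 0.813). For EGR1 and FOS the difference between doses was -1.14 (adjusted p = 0.570) and -0.68 (adjusted p = 0.544), and without the 24 h library the adjusted p was 0.0108 and 0.140. PGK1 differed by 0.84 (adjusted p = 0.103, and 0.0367 without that library).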

How the data were processed

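RNA-seq libraries of 15 samples of the 1 µM experiment, with 15 of the 1 mM experiment for the comparison of doses, were grouped by their labels. The authors mapped reads with CLC Genomics Workbench against GRCh38 and Ensembl genes. They deposited raw counts per gene for exons, introns and the whole gene, and TPM, which uses exon reads and exon length. The strand setting is not given in the sources used here, and neither is the sequencing provider of each library. Nothing in the labels ties a replicate to its own culture, and p-values measure the spread between these samples.

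Deposited exon counts went into edgeR 4.0.16 (limma 3.58.1, R 4.3.3), with its quasi-likelihood test, filterByExpr (minimum count 10, minimum total 15), TMM, glmQLFit and glmQLFTest over 15 libraries in 5 groups, with Benjamini-Hochberg adjustment. The SE of a log2 difference was its size over the root of F. The differences between times and doses were interaction contrasts, the latter over 30 libraries. The intronic share was compared with an exact permutation test. A DEG needed an adjusted p under 0.05, a log2 difference of 1 or more in size and a mean of 1 TPM in any group. The fits were tested on simulated data. There edgeR found 38 of 100 2-fold and 96 of 100 4-fold changes, with 8 calls among unchanged genes. DESeq2 found 62 and 99, with 37 calls among unchanged genes. The changed genes were drawn only from genes of higher count, so these rates do not cover genes of few reads. Tables used pandas 2.3.3, numpy 2.4.6 and scipy 1.17.1 in Python 3.11.15 and figures matplotlib 3.10.9, and DESeq2 1.42.0 was an alternative. Promoter windows were matched by symbol for 29 of 36 immediate early, 22 of 25 glycolysis and 61 of 82 DEGs, in the RefSeq table.

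The comparison, 31 gene lists and alternatives were chosen with earlier results of these data known. Genes named were the 10 largest DEGs without overlap in each direction, immediate early genes, receptors, called and abundant list members, and the 10 leading genes of each difference. Others were named after their values were seen, also where this is not said beside them. They include HES5, LDHA, SLC2A1, SLC2A3, VEGFA, BNIP3, GAD1, PPP1R1B, PDYN and CCNF. Deviations from group means of same-numbered Acute and Chronic libraries correlated by 0.12, 0.45 and 0.37 over genes. Acute replicate 3 and Chronic replicate 1 gave 0.24, and all 30 same-numbered pairs of the 5 groups -0.30 to 0.45 with a mean of 0.02. These values do not establish that replicate numbers pair libraries. The main fit was unpaired, and the replicate block was an alternative. Fits without replicate 2 of 3 groups, with the mitochondrial share as a covariate, and without Acute 24 h replicate 1 at 1 mM were added after seeing the data.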

Additional observations from a re-analysis of the deposited data

Results flagged for a closer look

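Genes whose difference between regimens itself differed between conditions are given as values. Between 1 h and 24 h at 1 µM, 3 genes passed the edgeR interaction test, NCOA5 with 2.38, FOS with -2.92 and EGR1 with -2.21 on the log2 scale, each as 1 h minus 24 h.

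Between 1 µM and 1 mM at 1 h, 462 genes passed. The 10 with the smallest adjusted p were SULF1 (2.90), an extracellular sulfatase, FSTL1 (1.495), a secreted glycoprotein, TARBP1 (-1.29), an RNA methyltransferase-like gene, MGAT4C (-3.16), KRT8 (2.19) and KRT18 (2.02), the keratins of simple epithelia, GRM8 (2.19), a metabotropic glutamate receptor, ZDHHC23 (-2.13), MEST (1.17) and CALR (1.11), the chaperone calreticulin. SULF1 rested on the higher dose, with -2.20 at 1 mM (adjusted p = 6.12e-06) and 0.67 at 1 µM (adjusted p = 0.221). FSTL1, MEST, MGAT4C and TARBP1 were called in opposite directions at the doses. Their 1 µM calls were lost with total gene reads (adjusted p = 0.0567, 0.0722, 0.191 and 0.119) and without Chronic replicate 1 or 3, and those of FSTL1 and MEST also with the replicate block (adjusted p = 0.0633 and 0.0554).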

How the results depend on the processing

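With 3 libraries a group and 5755919 to 12911212 exon reads in each, small differences in low genes were not detectable. The 82 DEGs became 199 with DESeq2's Wald test, 293 with the intronic share as covariate (51 shared), 215 with the mitochondrial share as covariate (80 shared), 161 without replicate 2 of PBS, Acute 1 h and Chronic 1 h (64 shared), 199 with adjusted p alone and 198 with an absolute log2 fold change of 0.5. A fit of only the 2 groups gave 0, with 1109 genes at p below 0.05 before adjustment. The other alternatives gave 74 to 93, and leaving out each library 34 to 105, with 36 without Chronic replicate 1 and 34 without Chronic replicate 3. Total gene reads shared 41 of their 74 with the 82.

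For the difference between doses, 462 became 3219 with total gene reads, 1005 without those replicates 2, 1145 without Acute 24 h replicate 1 at 1 mM and 200 to 866 without each library. The 3 genes differing between 1 h and 24 h became 2 or 3 in other settings and 2 to 22 without each library, with 22 without Acute 1 h replicate 2. The intronic difference stayed between -8.80 and -3.29 points without each library.

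The main fit did not pair libraries by replicate number. With the replicate block there were 84 DEGs (76 shared), 369 genes differing between doses and 3 between times, and 54 of 62 called named genes kept their call. These 62 kept it in 34 cases with total gene reads, 24 without Chronic replicate 1 and 22 without Chronic replicate 3. GALNTL6 turned to -0.13 with total gene reads, and TUBB3 from 0.14 to -0.60 (adjusted p = 0.0418) with the intronic share. Causes were not tested.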

Other observations

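Cholesterol synthesis had 1 call of 24 at 1 h, FDFT1, with 20 members above 0 and a median of 0.22. At 24 h, in other libraries, 10 of its members were called higher after chronic than after acute dosing. Over all genes, 0.556% were called higher at 1 h and 2.37% at 24 h. HIF targets outside glycolysis had 3 calls of 23 at 1 h and 12 at 24 h, where the median log2 difference was 1.03 and VEGFA and BNIP3, not called at 1 h, gave 1.54 and 1.63. None of the Notch targets was called at 24 h. GAD1, named here after its values were seen, was below PBS after both regimens at 1 h, by -1.29 (edgeR adjusted p = 0.0130) and -1.16 (adjusted p = 0.0357). There was little difference between the regimens (0.14, SE 0.28, adjusted p = 0.889).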
